A study of Rattus norvegicus with 24 samples.

Results

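Cholinergic receptors of the carotid body (CB) are described here through 4 genes, Chrna3 and Chrna4, which encode nicotinic receptor subunits, and Chrm1 and Chrm3, which encode muscarinic receptors. They were chosen as the cholinergic receptor symbols that the study's table of strain differences pairs with an Ensembl identifier, and they are 4 of the 32623 genes in the count table and 4 of the 1273 identifiers that could be paired with a symbol. That table, as read here, holds only genes that were higher in the hypertensive strain. The members were therefore selected on the strain difference in these libraries, which is given below as a description, with no p-value. RefSeq lists 21 cholinergic receptor genes for the rat, and the other members of the family, among them the beta subunits, were not analysed here. Chrna3 is ENSRNOG00000013829, Chrna4 is ENSRNOG00000011202, Chrm1 is ENSRNOG00000018385 and Chrm3 is ENSRNOG00000049410. In the RefSeq GRCr8 annotation Chrna3 lies between Chrna5 and Chrnb4, in the cluster of nicotinic subunit genes. Chrna4 has Col20a1 as a neighbour, Chrm1 has Slc22a6 and Slc3a2, and Chrm3 has Zp4 and Zmynd11. The genome build behind the counts is not given in the sources used here, so no coordinates are printed.

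Polyadenylated RNA was sequenced from the CBs of 12 male rats, aged 12 to 14 weeks by the sample labels. There were 6 Wistar-Kyoto rats (WKY/NHsd), the normotensive control strain, and 6 spontaneously hypertensive rats (SHR/NHsd, called SH rats here). Both are inbred strains without transgene or treatment, so a strain comparison covers every genetic difference between them as well as blood pressure. The left and the right CB of each rat were sequenced separately, which gave 24 libraries.

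Acetylcholine acts on nicotinic and muscarinic receptors. Nicotinic receptors are ion channels built of subunits around a pore, and the alpha subunits form most of the binding site for acetylcholine. Subunits alpha3 and beta4 make up the common nicotinic receptor of autonomic ganglia, and alpha4 pairs with beta2 in the main nicotinic receptor of the brain. Muscarinic receptors are G protein-coupled receptors. The M1 and M3 receptors both couple to Gq, which activates phospholipase C and releases calcium from internal stores. In the CB, the glomus cells are the oxygen-sensing cells and acetylcholine is one of the transmitters at the synapse with the afferent nerve.

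Library totals ran from 9198341 to 13655419 counts, with a similar range in each strain and side. One library stood apart. In the right CB of SH rat 34, Chga had 437 counts and Dbh 17, against 4684 to 11171 and 265 to 473 in the other SH libraries. Both genes encode proteins of the secretory granules of glomus cells. The same library held 63413 counts of Tg, which encodes thyroglobulin of the thyroid, against 5 to 2179. The study's strain table leaves this library out, and the values below are over the other 23 libraries (12 WKY and 11 SH) unless all 24 are named. Its own values are given separately. Levels are TMM-normalized CPM, which are counts scaled to a common library size, with both sides of a rat averaged, and for SH rat 34 only the left CB entered. Levels of different genes are not compared, because no transcript lengths of the counted annotation were at hand. In bulk tissue, fewer cells of a type and less RNA per cell cannot be told apart.

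Chrna3 encodes the alpha3 nicotinic subunit. Among the 6 WKY rats its level was lowest at 29.7 CPM, had a median of 32.8 and was highest at 38.2. Among the 6 SH rats the lowest was 37.7 CPM, the median 53.3 and the highest 60.4. SH rat 37 was the lowest SH rat and lay just below the highest WKY rat, WKY rat 41, while the other 5 SH rats lay above every WKY rat. The means were 33.5 ± 3.16 CPM in WKY and 51.3 ± 7.67 CPM in SH rats (SD, n = 6 each). The fitted difference was 0.61 on the log2 scale (SE 0.0924), or 1.52-fold. By library, 8 of the 11 SH libraries were above every WKY library. Counts ran from 236 to 462 in WKY and from 333 to 697 in SH libraries, and counting error alone accounts for 14.1% of the variance between WKY libraries and 5.76% of that between SH libraries. Most of the spread of Chrna3 was thus between libraries rather than from counting.

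Chrna4 encodes the alpha4 nicotinic subunit, and it was measured on few reads. WKY libraries held 5 to 28 counts and SH libraries 14 to 48. Over rats, the WKY level was lowest at 0.605 CPM, with a median of 1.55 and a highest of 2.0. The SH level was lowest at 1.72 CPM, with a median of 2.30 and a highest of 3.29. The strains overlapped: SH rats 30 and 31 were below WKY rat 41, and the other 4 SH rats were above every WKY rat. The means were 1.40 ± 0.559 CPM in WKY and 2.38 ± 0.613 CPM in SH rats (SD, n = 6 each). The fitted difference was 0.74 (SE 0.254), or 1.67-fold. By library the overlap was wider, with 3 of 11 SH libraries above every WKY library. Chrna4 had the widest spread of the 4 genes among WKY rats, where the SD was 39.9% of the mean, and WKY rats 33 and 34 were the low ones.

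Chrm1 encodes the M1 muscarinic receptor. It was barely detected in WKY CBs, with 0 to 10 counts a library and a median of 5.5. SH libraries held 9 to 30 counts with a median of 23. The WKY rats ran from 0.303 CPM over a median of 0.554 to 0.643, and the SH rats from 1.13 CPM over a median of 1.6 to 2.63. The SH level was thus higher in every SH rat than in any WKY rat. Such a separation of the rats was seen in 7.06% of all genes tested, and with SH higher in 3.39%. Since Chrm1 was selected on the strain difference, nothing is read from it. The means were 0.521 ± 0.127 CPM in WKY and 1.76 ± 0.639 CPM in SH rats (SD, n = 6 each). The fitted difference was 1.77 (SE 0.304), or 3.41-fold, which was the largest of the 4. Single libraries overlapped, as they did for the other 3 genes, and 9 of 11 SH libraries were above every WKY library. All libraries of the strains were apart in 2.01% of genes. Counting error alone accounts for 67.9% of the variance between WKY libraries, so differences among WKY CBs were mostly below what this depth resolves. Among SH rats, 30, 34 and 31 were the low ones and 33 and 37 the high ones.

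Chrm3 encodes the M3 muscarinic receptor. The WKY rats ran from 5.48 CPM over a median of 6.34 to 7.74, and the SH rats from 6.73 CPM over a median of 9.96 to 12.0. SH rats 31 and 36 lay within the WKY range and the other 4 SH rats above it. The means were 6.61 ± 0.872 CPM in WKY and 9.65 ± 2.14 CPM in SH rats (SD, n = 6 each). The fitted difference was 0.53 (SE 0.142), or 1.45-fold, the smallest of the 4. Counts ran from 42 to 90 in WKY and from 55 to 139 in SH libraries, and 7 of 11 SH libraries were above every WKY library. The order of the SH rats differed from that of Chrm1: SH rat 30 had the highest Chrm3 level and the lowest Chrm1 level of its strain, while SH rat 37 was high in both.

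**Figure D1:**
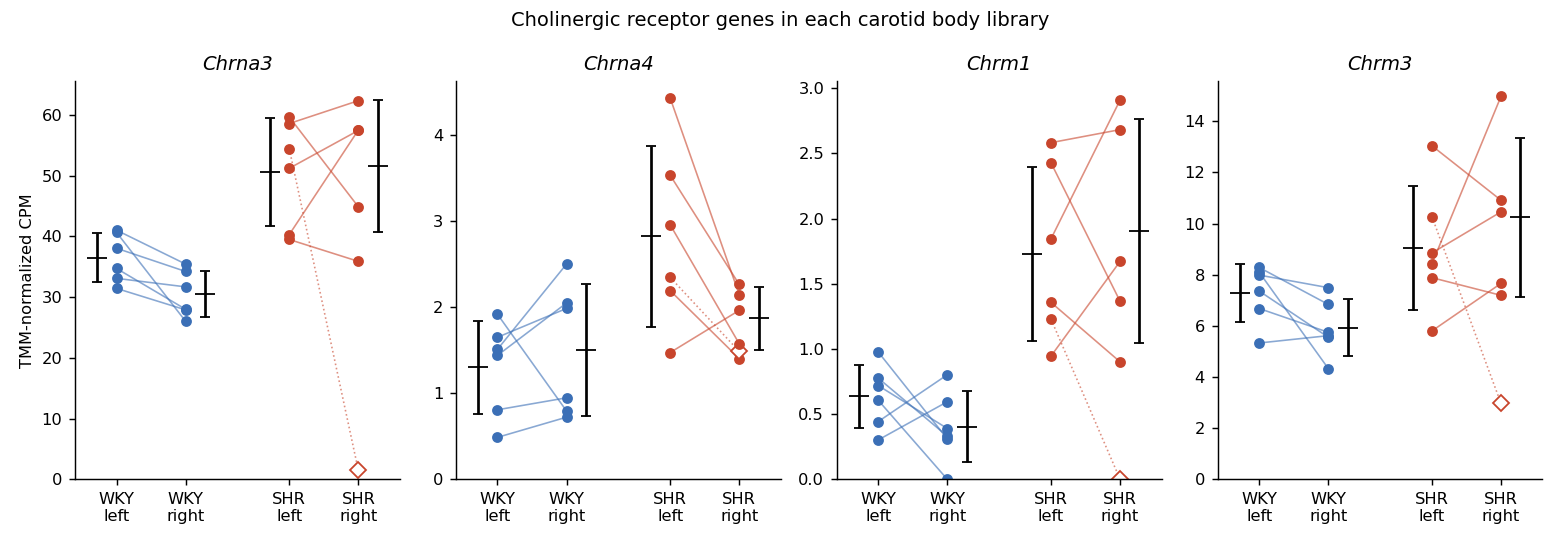
TMM-normalized CPM (vertical axis, linear, from 0, with its own scale for each gene) of Chrna3, Chrna4, Chrm1 and Chrm3 in each library, by strain and side. Points are libraries, lines join the CBs of 1 rat, bars are the mean ± SD of 6 libraries (5 for SHR right), and the open diamond is the right CB of SH rat 34, scaled with all 24 libraries and left out of the means. SHR points sit higher than WKY points for each gene, with overlap between single libraries in all 4 panels.

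All 4 genes were called higher in SH rats by edgeR, against 10.2% of the 14258 genes tested called higher in SH rats, 9.85% called lower and 20.1% called in either direction. That fit takes both CBs of a rat as separate libraries. With counts summed per rat 3 of the 4 were called higher, all but Chrna4, against 1013 of 15130 genes. With all 24 libraries 1 of the 4 was called higher, Chrm1, against 5.35% of all genes. How the genes were chosen fixed the count of 4, and nothing is read from these counts. The 4 genes passed the filter on a mean normalized count above 10, Chrm1 only through the SH libraries, since in WKY CBs alone it was below it. The median of the 4 differences was 0.67 on the log2 scale, beside 0.41 over the 1273 paired genes and 0.01 over all genes tested. Ordered from the highest signed strain difference, with SH higher, among all genes tested, Chrm1 was at place 45, Chrna4 at 253, Chrna3 at 361 and Chrm3 at 447. The difference of Chrm1 exceeded that of the next gene, Chrna4, by more than the SE of either, and the differences of Chrna3 and Chrm3 lie within 1 SE of that of Chrna4. With the right CB of SH rat 34 added, the differences were 0.48 for Chrna3, 0.69 for Chrna4, 1.66 for Chrm1 and 0.45 for Chrm3.

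By side, the strain difference in the left CBs alone was 0.47 for Chrna3, 1.11 for Chrna4, 1.43 for Chrm1 and 0.31 for Chrm3. In the right CBs alone it was 0.75, 0.30, 2.16 and 0.77 in the same order. The estimate was larger on the left for Chrna4 and on the right for the other 3, and the test of this split, the interaction given with the sides below, called none of the 4 genes. Leaving out 1 rat at a time gave 0.54 to 0.68 for Chrna3, 0.58 to 0.86 for Chrna4, 1.61 to 1.88 for Chrm1 and 0.44 to 0.62 for Chrm3. The difference kept its direction in each of these fits. They reuse the libraries on which the genes were selected, so nothing is read from this.

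**Figure D2:**
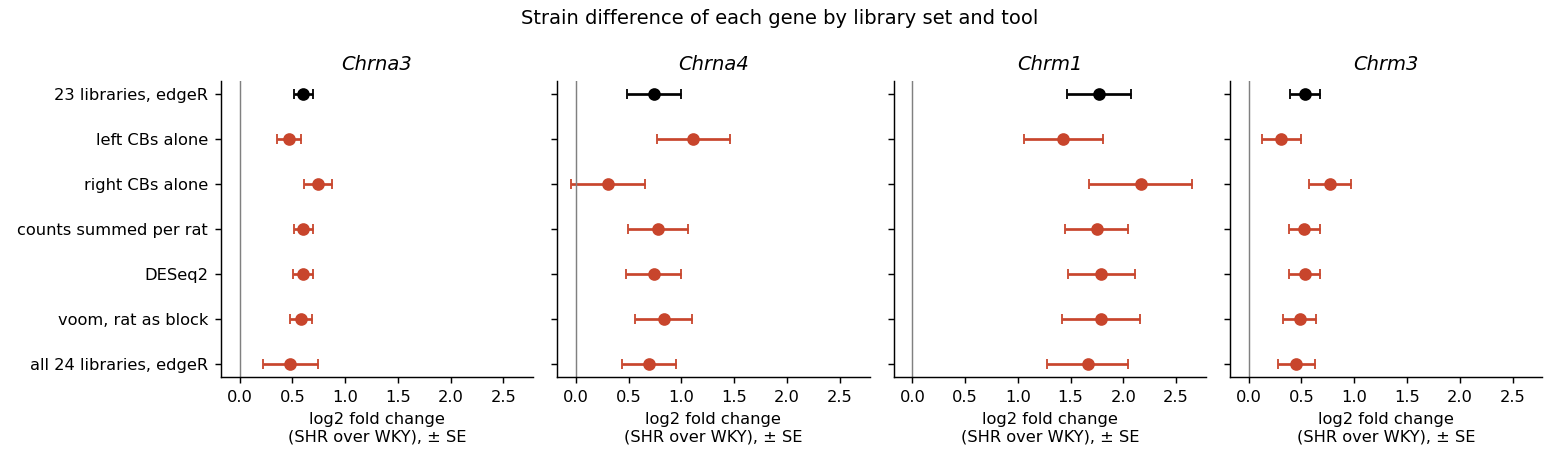
Log2 fold change of SHR over WKY (horizontal axis, the same in each panel) for each gene under 7 settings of library set and tool, with bars of ± 1 SE. Each value lies above 0, and the bar for Chrna4 in the right CBs alone (0.30) is the only one that reaches 0.

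The left and right CBs of one rat were compared next, a comparison that had no part in choosing the genes. None of the 4 genes differed between sides by edgeR. Left minus right was 0.12 on the log2 scale for Chrna3 (95% interval -0.07 to 0.30, adjusted p = 0.955) and 0.20 for Chrna4 (-0.30 to 0.71, adjusted p = 0.968). It was 0.15 for Chrm1 (-0.43 to 0.74, adjusted p = 0.977) and 0.06 for Chrm3 (-0.22 to 0.34, adjusted p = 0.979). The intervals leave room for a side difference of Chrm1 or Chrna4 of the size of the strain difference of Chrna3, and they are narrower for Chrna3 and Chrm3. Over all 14258 genes, edgeR called 0 between sides, 702 (4.92%) had an unadjusted p under 0.05, and DESeq2 and limma-voom called 0 as well, with 716 and 939 under 0.05.

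Taken rat by rat, over the 11 rats with both sides, Chrna3 was higher on the left in 8, with a mean difference of 0.12 in log2(CPM + 0.5) (SD 0.302, exact sign-flip permutation test, two-sided p = 0.219). Chrna4 was higher on the left in 5 of 11 (mean 0.15, SD 0.567, exact p = 0.398). For Chrm1 the count was 6 of 11 (mean 0.19, SD 0.625, exact p = 0.335) and for Chrm3 7 of 11 (mean 0.06, SD 0.426, exact p = 0.643). The smallest p that 11 rats allow in this test is 0.000977. The sides of one rat could differ a good deal without a common direction: the largest single difference was 0.63 for Chrna3, in WKY rat 36, 0.90 for Chrna4, in WKY rat 32, 1.15 for Chrm1, in WKY rat 33, and 0.83 for Chrm3, in WKY rat 34. For Chrm1 in WKY rat 33 this rested on 6 counts on the left and 0 on the right.

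Split by strain, the means of the sides differed in sign for each gene, which was not past the test of the interaction below. Chrna3 was higher on the left in 6 of 6 WKY rats, by 0.25 ± 0.202, and in 2 of 5 SH rats, with a mean of -0.04 ± 0.342 (SD, in log2(CPM + 0.5)). Chrm3 was higher on the left in 5 of 6 WKY rats (0.28 ± 0.310) and in 2 of 5 SH rats (-0.21 ± 0.415 in the mean). For Chrm1 the left was higher in 4 of 6 WKY rats (0.36 ± 0.676) and in 2 of 5 SH rats (-0.02 ± 0.553). Chrna4 had the opposite signs, with the left higher in 1 of 6 WKY rats (-0.12 ± 0.524) and in 4 of 5 SH rats (0.47 ± 0.470). The test of this split, the side by strain interaction in edgeR, called none of the 4 genes. It was -0.28 for Chrna3 (95% interval -0.64 to 0.07), 0.80 for Chrna4 (-0.17 to 1.78), -0.74 for Chrm1 (-1.94 to 0.47) and -0.47 for Chrm3 (-1.01 to 0.07), each with an adjusted p of 0.999. Unadjusted edgeR p-values were 0.125, 0.116, 0.240 and 0.0983. With each rat as a block, the unadjusted edgeR p for Chrm3 was 0.0453 and its adjusted p 0.981. No gene of the 14258 was called for the interaction by edgeR, DESeq2 or limma-voom, and 438 (3.07%), 474 and 657 had an unadjusted p under 0.05.

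**Figure D3:**
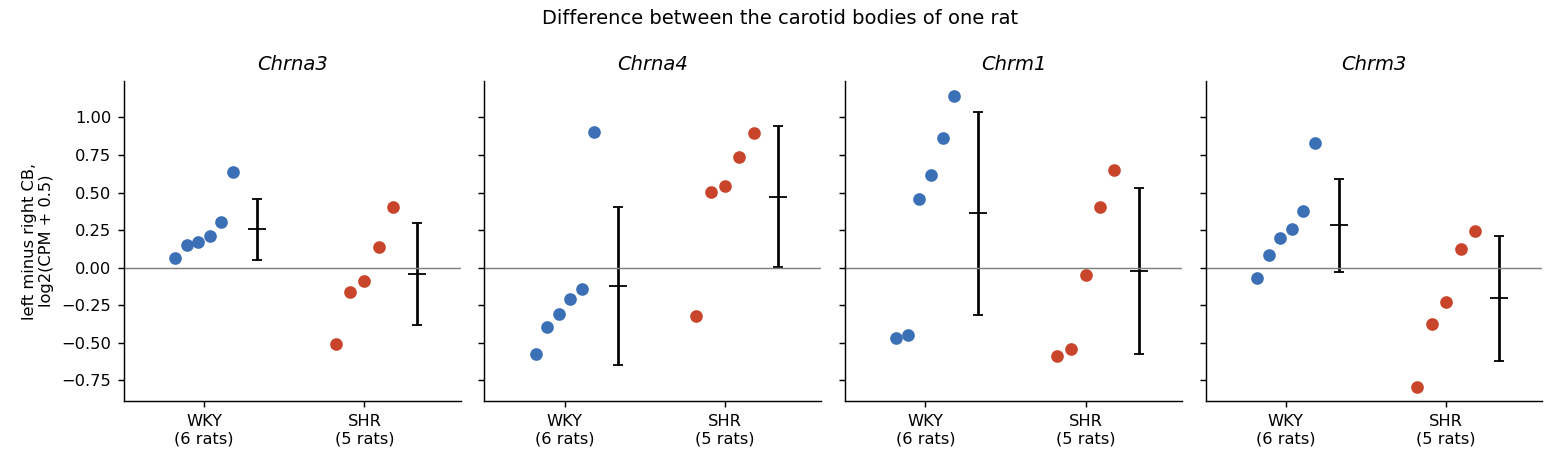
Left minus right CB of each rat in log2(CPM + 0.5) (vertical axis, the same in each panel) for the 4 genes, by strain. Points are rats in order of their value, and bars are the mean ± SD of 6 WKY and 5 SH rats. All 6 WKY points of Chrna3 lie above 0, and the other panels hold points on both sides of it.

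Whether the receptors varied together was asked after the strain difference had been removed, from the deviation of each of 12 rats from its strain mean in log2(CPM + 0.5). The SD of these deviations was 0.19 for Chrna3, 0.39 for Chrna4, 0.32 for Chrm1 and 0.26 for Chrm3. Of the 6 pairs, Chrna4 with Chrm1 had the highest correlation (r = 0.55, rho = 0.53), with permutation p = 0.0432 for r and 0.0645 for rho, and 0.259 and 0.197 after Benjamini-Hochberg adjustment over the 6. Rats high in one tended to be high in the other, with SH rats 33 and 37 high and SH rats 30 and 31 low in both, but the pair did not pass the adjusted threshold. Within WKY rats r was 0.35 and within SH rats 0.87 (n = 6 each). Without the 2 rats farthest from the median of Chrna4, r was 0.82. Leaving out each rat in turn gave r from 0.46 without SH rat 33 to 0.85 without WKY rat 34, the 1 removal of the 12 that brought the adjusted p under 0.05, so the pair rests on which rats are counted. With all 24 libraries r was 0.49.

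The nicotinic pair, Chrna3 with Chrna4, had r = 0.27 and rho = 0.57 (permutation p = 0.358 and 0.0656, adjusted 0.794 and 0.197), and r = 0.60 without the 2 rats farthest from the median. The muscarinic pair, Chrm1 with Chrm3, had r = -0.13 and rho = -0.09 (permutation p = 0.725 and 0.802, adjusted 0.794 and 0.802), and r = 0.29 without the 2 farthest. Chrna3 with Chrm1 had r = 0.13 and rho = 0.36 (permutation p = 0.794 and 0.292, adjusted 0.794 and 0.584), with r = 0.50 without the 2 farthest rats and from -0.19 without SH rat 33 to 0.77 without SH rat 37 on leaving out 1 rat. SH rat 37 was low in Chrna3 and high in the other 3 genes. For Chrm3 with Chrna3, r was -0.30 and rho -0.25 (permutation p = 0.474 and 0.466, adjusted 0.794 and 0.656, r = -0.16 without the 2 farthest), and with Chrna4 they were 0.12 and 0.18 (permutation p = 0.672 and 0.547, adjusted 0.794 and 0.656, r = -0.10 without the 2 farthest). The right CB of SH rat 34 decided several of these values. With it included, r was 0.50 for Chrna3 with Chrm3, 0.42 for Chrm1 with Chrm3 and 0.78 for Chrna3 with Chrm1 (adjusted permutation p = 0.493, 0.493 and 0.168), so the sign turned for the pairs of Chrm3 with Chrna3 and with Chrm1. At the counts of Chrna4 and Chrm1, a low correlation does not show that 2 genes varied apart.

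**Figure D4:**
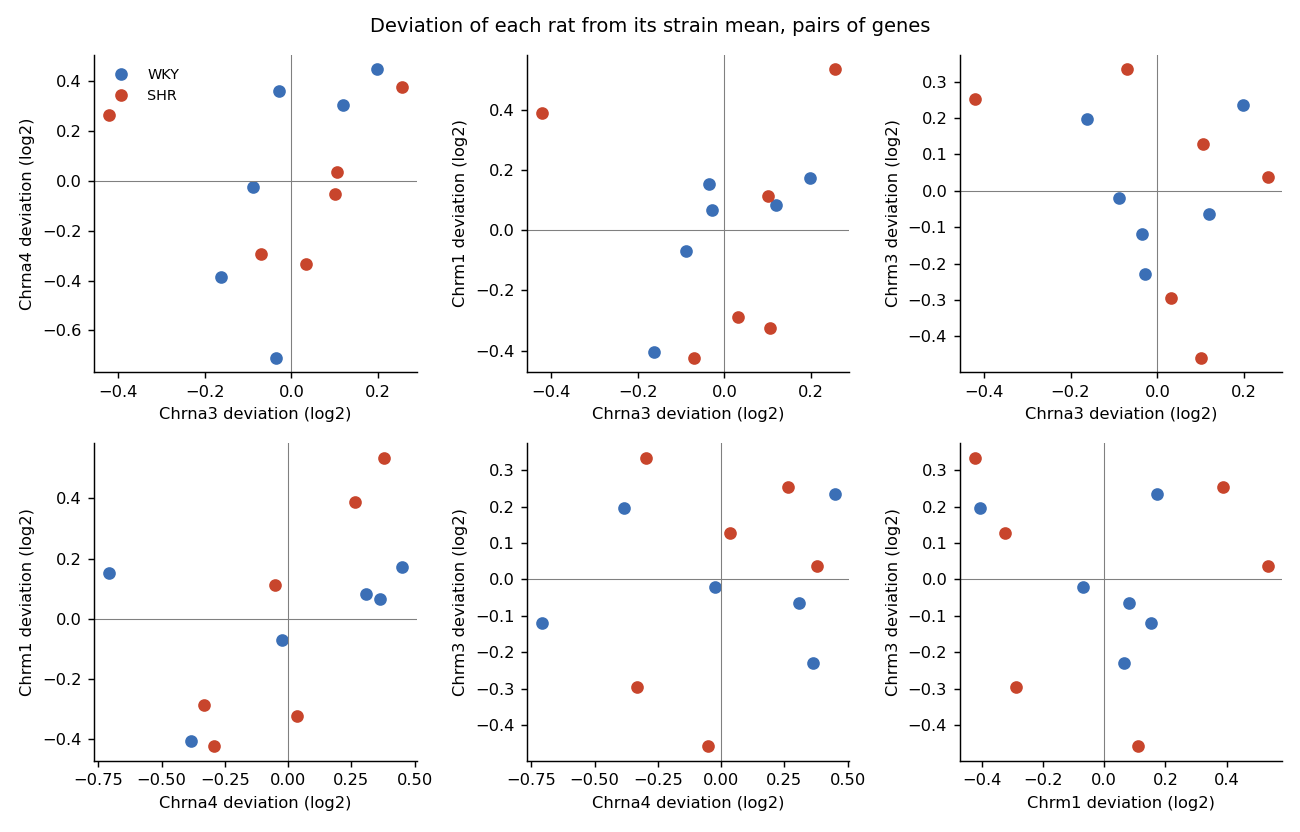
Deviation of each of the 12 rats from its strain mean in log2(CPM + 0.5), for the 6 pairs of genes, 1 gene on each axis, WKY in blue and SHR in red. Chrna4 and Chrm1 tend to rise together (r = 0.55), with WKY rat 34 at the far left as the point off the trend, and SH rat 37 is the far left point in the panels of Chrna3.

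The genes with the most similar pattern were sought among the other 1269 paired genes, by Pearson's r over the 23 libraries after the mean of each strain and side was removed. This is a description, since sides of one rat and all genes of a library share their depth and dissection. For Chrna3 they were Stmn4 (r = 0.76, rho = 0.76), a neuronal regulator of microtubules, Myh3 (0.74, 0.60), a myosin heavy chain, and Dnajc15 (0.69, 0.53), a mitochondrial co-chaperone. For Chrna4 they were Cpne7 (0.72, 0.70), a calcium-dependent phospholipid-binding protein, Palm (0.72, 0.68), a membrane-bound protein of neurons, and Per2 (0.68, 0.60), a component of the circadian clock. For Chrm1 they were Slc37a4 (0.68, 0.72), the glucose 6-phosphate transporter, Pitpnm2 (0.66, 0.65), a phosphatidylinositol transfer protein, and Tas1r1 (0.64, 0.67), a taste receptor subunit. For Chrm3 they were Jun (0.69, 0.67), an immediate early transcription factor, Ch25h (0.65, 0.66), cholesterol 25-hydroxylase, and Coch (0.62, 0.65), the extracellular matrix protein cochlin. The 4 lists share no gene. The median r over all 1269 genes was 0.04 for Chrna3, 0.06 for Chrna4, 0.05 for Chrm1 and 0.01 for Chrm3, and the 95th percentile ran from 0.40 for Chrm3 and Chrm1 to 0.49 for Chrna4.

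The right CB of SH rat 34, the library that stood apart, was also the one that the choice of genes had not used. Being 1 library it has no test. It held 12 counts of Chrna3 (exact Poisson 95% interval 6.20 to 21.0, which covers counting error only), or 1.49 CPM, where the other SH libraries had 35.4 to 61.5 CPM and the left CB of the same rat 54.0 CPM. The lowest of the other SH libraries was thus 23.8-fold higher. Chrm3 had 24 counts, or 2.97 CPM, against 5.73 to 14.8 CPM in the other SH libraries, and the lowest of these was 1.93-fold higher. Chrm1 had 0 counts, which allows up to 0.371 CPM (3 counts), below the 0.889 CPM of the lowest other SH library. Chrna4 had 12 counts or 1.49 CPM, inside the 1.38 to 4.36 CPM of the other SH libraries, and 2.33 CPM in the left CB of this rat. Its Poisson interval was 6.20 to 21.0 counts, and the lowest count in another SH library was 14. Counting error thus does not settle whether Chrna4 lay inside or below that range. For the glomus genes Chgb, Dbh and Chga, the lowest other SH library was 129-fold, 13.0-fold and 9.2-fold higher, a range that holds the value of Chrna3. Ret and Gata3, the other paired glomus markers, had 17.0 and 0.495 CPM, where the lowest SH rats had 53.4 and 5.25 CPM. Lower values were not particular to glomus genes. The summed neuron markers had 39.0 CPM, against 360 CPM in the lowest other SH library. Endothelium and smooth muscle sums were below the other SH libraries too, and the macrophage sum was not. Other markers were above every other SH library. The adipocyte sum was 393 CPM against at most 65.3, Pmp2 71.3 against at most 21.5 and Casq1 11.9 against at most 8.73. Chrna3, Chrm1 and Chrm3 were thus below every other SH library and Chrna4 was not. The part of the tissue content of this library in these values was not tested. CPM in this paragraph are scaled over all 24 libraries, with 1 exception. The other SH libraries or rats set beside this library for Ret, Gata3, Pmp2, Casq1 and the marker sums are scaled over the 23 libraries.

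Genes that assemble or modulate nicotinic receptors came from a list of 17, and identifiers were at hand for 4. As names were at hand only for genes higher in SH rats, a gene that fell could not appear, and 64.2% of all paired genes passed the test. Tmem35a encodes NACHO, a chaperone for the assembly of nicotinic receptors, and its level was 64.3 ± 4.83 CPM in WKY and 87.5 ± 9.56 CPM in SH rats, a difference of 0.44 on the log2 scale. Lypd1 encodes Lynx2, a membrane-anchored protein that binds nicotinic receptors and dampens them. It had 1.5 ± 0.386 and 3.05 ± 0.777 CPM, a difference of 1.04. Lrp4, the agrin receptor that clusters nicotinic receptors at the neuromuscular junction, had 103 ± 11 and 141 ± 13.0 CPM, a difference of 0.47 (SD, n = 6 each). These 3 passed the edgeR test with SH higher. Their rats did not overlap between strains, which was so for 27.8% of paired genes. Lypd6, a relative of Lypd1, had 1.26 ± 0.250 and 1.67 ± 1.17 CPM and a difference of 0.41 (SE 0.351), and it did not pass. With all 24 libraries 2 of the 4 passed, Lypd1 and Lrp4, against 38.5% of paired genes and 5.35% of all genes called higher. The median of the 4 differences was 0.45, beside 0.41 over all paired genes. Of 9 genes for the synthesis, storage, uptake and breakdown of acetylcholine, 0 could be paired, so the supply of the transmitter is not analysed here.

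The signalling list held 73 genes known to act downstream of muscarinic and nicotinic receptors, of which 7 could be paired. By edgeR 6 of the 7 passed with SH higher, beside 64.2% of paired genes, and 3 of 7 over all 24 libraries, beside 38.5%. With counts summed per rat 4 of the 7 passed, all but Ryr2, Kcnq1 and Kcnq3, against 1013 of 15130 genes. The median difference was 0.35, below the 0.41 over all paired genes. Camk4, a calcium and calmodulin-dependent kinase, had the largest, with 2.84 ± 0.516 CPM in WKY and 5.78 ± 1.31 CPM in SH rats, a difference of 1.08. The rats of the strains did not overlap for Camk4 and Orai1, which was so for 27.8% of paired genes. The potassium channel subunits Kcnq1 and Kcnq3 had differences of 0.67 and 0.46, and Kcnq3 forms part of the M current that muscarinic receptors close. Orai1, the pore of store-operated calcium entry, had 12.2 ± 1.57 and 15.4 ± 1.41 CPM and a difference of 0.35. Cacna1a, a voltage-gated calcium channel, had a difference of 0.31 and Adcy5, an adenylyl cyclase, of 0.30. Ryr2, a calcium release channel, had 0.28 (SE 0.114) and did not pass.

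Markers of cell types of the tissue moved with strain too, where 64.2% of all paired genes passed the test. Identifiers were at hand for 5 of 17 glomus cell markers (Dbh, Chga, Chgb, Ret and Gata3), and their summed level ran from 1006 to 1329 CPM in WKY rats and from 1313 to 1896 CPM in SH rats. Their differences ran from 0.33 to 0.71, and 4 of 5 passed the test, Gata3 being the one that did not. Of 19 neuron markers 3 could be paired (Prph, Nefh and Scn9a), with a sum of 233 to 286 CPM in WKY rats and 386 to 442 CPM in SH rats and differences of 0.42 to 0.72, and all 3 passed. The glomus sum overlapped slightly between strains, with the lowest SH rat at 1313 CPM and the highest WKY rat at 1329 CPM. The neuron sum did not overlap, and neither did the macrophage and endothelium sums or Casq1 below. Rats of the strains did not overlap in 27.8% of paired genes. Markers of other cell types moved as well. For macrophages 6 of 6 paired markers passed (0.38 to 0.84), with sums of 80.3 to 123 CPM in WKY and 132 to 197 CPM in SH rats, and for endothelium 3 of 3 (0.28 to 0.33), with 306 to 375 and 398 to 445 CPM. For smooth muscle 1 of 5 passed, Tpm2, with sums of 463 to 954 and 627 to 1195 CPM. For adipocytes 1 of 3 passed, Cfd, with sums of 6.09 to 19.6 and 7.71 to 49.2 CPM. The 1 paired marker of skeletal muscle, Casq1 (1.28), and of thyroid, Tg (3.17), passed, and that of Schwann cells, Pmp2 (0.82 on the log2 scale), did not. Tg reached 111 CPM in 1 SH rat (SH mean 23.3 ± 43.4, SD). With counts summed per rat 4 of 5 glomus, 3 of 3 neuron, 4 of 6 macrophage and 2 of 3 endothelium markers passed. In that fit 1013 of 15130 genes were called higher. Tpm2 and Casq1 passed in it too, and Cfd and Tg did not. With all 24 libraries 1 of 5 glomus, 1 of 3 neuron, 5 of 6 macrophage and 1 of 3 endothelium markers passed, beside 38.5% of paired genes. Tpm2 and Casq1 still passed there, and Cfd and Tg did not. Tyrosine hydroxylase and the other defining markers without a paired identifier were not analysed here, and a marker that fell could not appear. The differences of all 4 receptors lie within the range of these marker differences (0.28 to 3.17). They were 0.61 for Chrna3, 0.74 for Chrna4, 0.53 for Chrm3 and 1.77 for Chrm1, the last exceeded by Tg alone. Without Tg, the highest marker difference was 1.59, of Adipoq, which did not pass the test. The glomus and neuron markers ran from 0.33 to 0.72. Chrna3 and Chrm3 lie inside that range, and Chrna4 (SE 0.254) and Chrm1 above it. The part of the markers in the receptor differences was not tested between strains.

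Within strains, the deviations of the 4 genes were set against those of the summed glomus, neuron and smooth muscle markers over 12 rats, 12 relations in all. The highest was Chrna3 with the neuron markers (r = 0.60, rho = 0.65, permutation p = 0.0217 and 0.0310, adjusted over the 12 relations 0.260 and 0.372), and r was 0.48 without the 2 rats farthest from the median. Chrna3 with the glomus markers had r = 0.54 and rho = 0.41 (permutation p = 0.106 and 0.215, adjusted 0.588 and 0.679), and r = 0.25 without the 2 farthest. None of the 12 passed after adjustment. Of the other 3 genes, the largest size of r with any of the 3 sums was 0.42, a negative value between Chrm3 and the glomus markers.

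**Figure D5:**
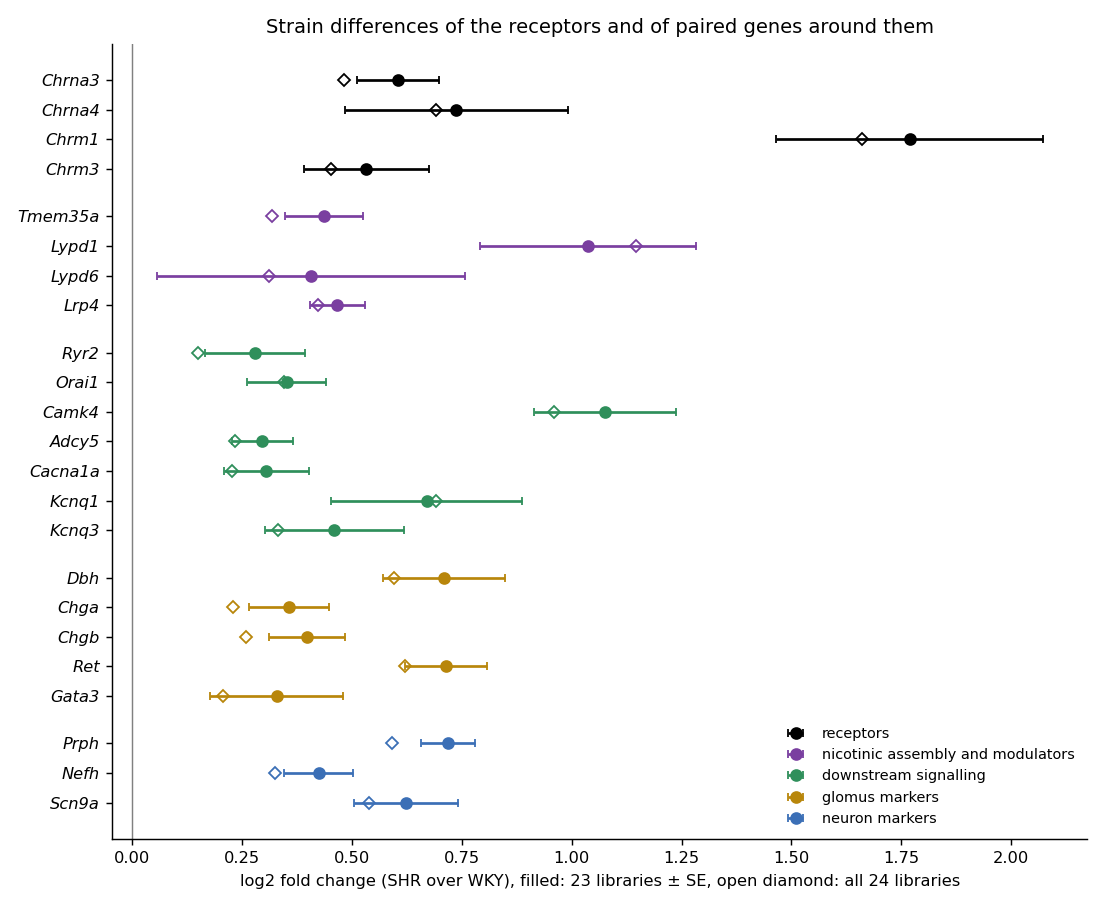
Log2 fold change of SHR over WKY (horizontal axis) for the 4 receptors, the paired genes of nicotinic assembly and downstream signalling, and the paired glomus and neuron markers, 1 gene a row. Filled points with bars are the 23 libraries ± 1 SE and open diamonds all 24. All points lie above 0, as the choice of paired genes fixes, and Chrm1 (1.77) lies farthest to the right.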

How the data were processed

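The authors isolated total RNA from snap-frozen CBs, prepared stranded TruSeq mRNA libraries, and used RNA-STAR for alignment and featureCounts for counting. They deposited raw counts per Ensembl gene, which are not normalized. Versions, build, annotation, and how strand and multi-mapping reads were treated are not given in the sources used here. Reads shared with an overlapping gene or its antisense partner therefore cannot be told apart. All 24 count columns were assigned by the library codes in the labels. Some genes of the lists are not reported here, and the lists are counted without them. The authors' fold changes and p-values in their supplementary table were not used. Only its symbols were, for 1273 identifiers.

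Counts were fitted in R 4.3.3 with edgeR 4.0.16 (TMM, robust quasi-likelihood F-test) in a model with strain and side, keeping genes whose mean normalized count exceeded 10, with Benjamini-Hochberg adjustment at 0.05 over all genes. An interaction term was added for the difference between strains in the side effect. Intervals are 95%. DESeq2 1.42.0 and limma 3.58.1 (voom, rat as random block) were alternatives. Values over rats used log2(CPM + 0.5). Permutation tests of correlations drew 100000 permutations within strain, two-sided. All pairs of libraries differed by more than sampling noise (lowest chi-square per degree of freedom 4.97 over 253 pairs). Mean depth was 10248198 counts over 23 libraries. The intervals of side and interaction come from the SE of the edgeR fit, which includes the spread between libraries. The Poisson interval and the limit set by 0 counts cover counting error only.

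On simulated counts with a log2 change of 1 between sides, edgeR found 195 of 195 changed genes among 14215, as did DESeq2 and voom. False calls numbered 10 for edgeR, 26 for DESeq2 and 8 for voom. Every simulated gene was given the same spread beyond counting, and no effect of the rat was simulated. These numbers of calls pool all changed genes and are not split by level. They do not give the chance of finding such a change in Chrm1 or Chrna4, which had few reads. In the edgeR fit of the data, the SE of left minus right was 0.3 for Chrm1 and 0.256 for Chrna4.

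Left and right CBs carry the same rat number in the labels and are paired. Over 11 rats, their deviations from the group means correlated at a median r of 0.115 (-0.04 to 0.28). The numbers 33, 34, 36 and 37 are used in both strains, for different rats.

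Named genes were the 4 receptors, all genes of the pathway lists and of the glomus and neuron marker lists that could be paired, and for each receptor the 3 paired genes of highest r. The RefSeq GRCr8 table of 47357 genes holds an Ensembl identifier for 0 of them, so it served for names and neighbours, and the Entrez identifiers of all 4 receptors matched their symbols there. The receptors, lists and tests were chosen with earlier results of these data known. Alternatives were other scaling, filters and tools, all 24 libraries, counts summed per rat, each side or strain alone, no side covariate, blocks and leaving out each rat. The marker relations and the fit without a block on the libraries of the block were added after seeing the data.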

Additional observations from a re-analysis of the deposited data

How the results depend on the processing

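Of the strain differences of the 4 receptors under each alternative, 93 of 96 values moved by less than the spread between rats. The others were Chrna4 in the right CBs alone (0.30) and Chrm1 in the left (1.43) and right (2.16) CBs alone. All 83 values of left minus right and all 76 of the interaction kept their side of the threshold. So did 99 of 102 correlations, the others being Chrna4 with Chrm1 without the 2 farthest rats (r = 0.82) and 1 value each in leaving out rats, which gave -0.19 to 0.77 for Chrna3 with Chrm1 and 0.46 to 0.85 for Chrna4 with Chrm1. The count of all genes called between strains was 2863, and it was 2041 with counts summed per rat, 1483 with all 24 libraries, 1270 in the left and 838 in the right CBs alone, and 2193 to 2831 on leaving out 1 rat. A replicate block over the rat numbers that occur in both strains called 1568 genes, against 1638 without the block on the same libraries. With that block the strain difference was 0.62 for Chrna3, 1.05 for Chrna4, 2.01 for Chrm1 and 0.56 for Chrm3, and without it 0.64, 1.09, 2.06 and 0.57. Across strains these numbers name different rats, and their deviations correlated at a median r of -0.09 (-0.22 to 0.06 over 4 numbers). With each rat as a block the side and interaction tests called 0 genes, and 970 and 637 had an unadjusted p under 0.05 by edgeR, so this block changed no call. Chrm1 in WKY alone was below the filter on mean counts and gave no side value. The cause of these changes was not tested. Depth limits Chrm1 and Chrna4 most, at 0 to 30 and 5 to 48 counts a library.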
